A study of Mus musculus with 20 samples.

Results

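The 9 genes described here encode the subunits of AMPA receptors (Gria1, Gria2, Gria3 and Gria4) and of kainate receptors (Grik1, Grik2, Grik3, Grik4 and Grik5), and they were chosen by name from the 32285 genes listed in single nuclei RNA-sequencing counts of the mouse hippocampus. Each of the 20 libraries came from 1 male mouse aged 4.5 to 5.5 months, either APP/PS1 (APPSwe/PS1ΔE9), a familial Alzheimer's disease (fAD) model whose human transgenes are driven by the mouse prion protein promoter, or a wild-type (WT) littermate. The awake groups held 6 WT and 3 APP/PS1 mice, the isoflurane groups 3 WT and 4 APP/PS1 mice (5% lowered to 1.5%, 3 h), and the ketamine groups 2 WT and 2 APP/PS1 mice (150 mg/kg ketamine with 12 mg/kg xylazine, 3 h). Raw unique molecular identifier (UMI) counts of each gene were summed over the nuclei of a cell class in each mouse, so that the mouse and not the nucleus was the replicate. The questions were where each subunit gene was counted, and whether its level differed between brain states and between genotypes.

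AMPA and kainate receptors are tetrameric cation channels opened by glutamate, the main excitatory transmitter of the brain. AMPA receptors carry most fast excitatory transmission in the hippocampus, and their number at the synapse is changed in long-term potentiation and depression. GluA2, the product of Gria2, makes the channel nearly impermeable to calcium, so interneurons with little GluA2 have calcium-permeable receptors. Kainate receptors act on both sides of the synapse: GluK1, GluK2 and GluK3 (Grik1, Grik2, Grik3) can form channels alone, whereas GluK4 and GluK5 (Grik4, Grik5) need one of them, and mossy fiber synapses onto CA3 neurons are known for their kainate receptor currents.

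The residue that sets calcium permeability is the Q/R site of the pore loop. The stretches below are the coding sequence around that site for the 4 AMPA genes and the 2 kainate genes Grik1 and Grik2. They were read from GENCODE M21 transcripts on GRCm38, 5′ to 3′ on the coding strand. The Q/R codon is the one directly before the capitals, and the capitals mark the glutamine codon that follows it. The stretches are shown because the genomic Q/R codon reads glutamine in all 6, as caa in Gria4 and as cag in the others. The RNA of Gria2, Grik1 and Grik2 is known to be edited at that codon.
Gria1: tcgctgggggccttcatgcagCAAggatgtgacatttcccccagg
Gria2: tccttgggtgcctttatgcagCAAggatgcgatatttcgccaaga
Gria3: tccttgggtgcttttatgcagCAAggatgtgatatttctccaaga
Gria4: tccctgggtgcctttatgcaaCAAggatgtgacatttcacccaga
Grik1: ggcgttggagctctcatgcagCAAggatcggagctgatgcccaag
Grik2: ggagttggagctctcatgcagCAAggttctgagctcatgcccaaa
The codon in capitals, which follows the Q/R codon, lies at chr11:57243097-57243099 in Gria1 (plus strand, exon 11 of 16), at chr3:80706908-80706910 in Gria2 (minus strand, exon 11 of 16) and at chr10:49244326-49244328 in Grik2 (minus strand, exon 12 of 16). Of the 45 bases shown, Gria2 shares 42 with Gria3, 39 with Gria4, 36 with Gria1 and 26 with Grik2. The counts come from the 3′ ends of transcripts and do not read the Q/R codon, so neither editing nor the flip and flop splice forms were measured.

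The files held 160777 nuclei, with 4743 to 10877 nuclei and 9243992 to 25394891 UMIs per mouse. Clusters were named from marker genes, and 8 classes had enough nuclei in all 20 mice to be tested: CA1-like (16115 nuclei), CA3-like (5942), dentate gyrus (DG) granule-like (40240), subicular or cortical excitatory-like (4633), GABAergic-like (7536), oligodendrocyte precursor (OPC)-like (3957), astrocyte-like (20323) and oligodendrocyte-like (15951). Barcodes found in more than 1 library made up 4.08% of the nuclei. Mice 1 to 4 stood apart by their share of mitochondrial UMIs (0.939 to 1.78% against 0.0353 to 0.336% in the others). Mouse 25 held 95.9% of a CA1-like cluster of 221 nuclei, and had 266 CA1-like nuclei in all, so most of them came from that cluster. Its median UMIs per nucleus, relative to the median of each mouse, were 4.29, against 1.52 in the other CA1-like cluster. The part of that cluster in the CA1-like results was not tested. Prnp, whose promoter drives the transgenes, went against some genotype labels: in CA1-like nuclei its level (CPM, UMIs of the gene scaled to 1000000 UMIs of the class) ranged from 60.8 to 501 CPM in mice labelled APP/PS1 and from 39.1 to 184 in mice labelled WT. How closely counts of Prnp follow the transgenes was not tested. The lowest mouse labelled APP/PS1 was mouse 11 and the highest mouse labelled WT was mouse 14, which had 184, more than 5 of the 9 mice labelled APP/PS1 (mice 11, 17, 20, 25 and 26, 60.8 to 165). Mice 1, 3 and 19, labelled WT, had 108, 141 and 115, each more than mice 11, 17 and 20. Genotypes are therefore given as labelled, and WT mice below are those labelled WT.

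Levels are given in CPM as mean ± SD over mice. The SDs span all states and genotypes and the classes share mice, so a gap within an SD does not show that classes are alike. Introns were counted, and counts were not divided by gene length, so levels are compared between classes for 1 gene and never between genes. A level of a class cannot tell a change in each nucleus from a change in the mix of nuclei. Free RNA in the droplets was not measured, and although the study's methods name a correction for it, whether these counts had passed through it is not known. Microglia-like nuclei, which should hold little receptor RNA, are used as a reference for low levels, with mean CPM of 145 for Gria1, 297 for Gria2, 62.9 for Gria3, 18.4 for Gria4, 9.58 for Grik1, 65.4 for Grik2, 3.16 for Grik3, 18.1 for Grik4 and 9.95 for Grik5. Low levels differed between classes, as Gria2 in mural-like nuclei had 884 ± 427 (n = 16 mice).

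The interneuron subclasses came from a further clustering of the 7536 GABAergic-like nuclei, and many of these nuclei stayed in no named subclass. The Sst subclass held 965 nuclei, while a subcluster of 575 nuclei with Sst as its top gene stayed unnamed. Levels of a subclass hold for its named nuclei only. Gria1 was counted most in Sst GABAergic-like nuclei, at 6066 ± 1357 CPM, and ranged there from 4041 to 8428 over mice. CA1-like nuclei followed at 3509.8 ± 466.1 and DG granule-like nuclei at 3163 ± 426, a gap smaller than the larger of their SDs. CA3-like nuclei had 2699 ± 399.5 and Pvalb GABAergic-like nuclei 2786 ± 593, again within their spread. Gria1 was at the microglia-like level in OPC-like nuclei (119 ± 61.0) and oligodendrocyte-like nuclei (111 ± 66.2).

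Gria2 had close means in the principal neurons of the hippocampus, at 2233 ± 252 in CA1-like, 2173 ± 323 in CA3-like and 2111 ± 240.1 in DG granule-like nuclei. These classes did not differ beyond their SDs. A wide gap, over the larger SD, separated these from subicular or cortical excitatory-like nuclei (1397 ± 141). Outside neurons it was high in OPC-like (1346 ± 188) and astrocyte-like nuclei (1200.1 ± 149.5), where it exceeded GABAergic-like nuclei (998 ± 172). Oligodendrocyte-like nuclei, at 269 ± 92.6, were no higher than microglia-like nuclei.

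Gria3 was led by Sst (1206 ± 327) and Pvalb GABAergic-like nuclei (978 ± 132), with CA1-like nuclei next (874 ± 94.4), and these neighbours did not differ beyond their SDs. Vip GABAergic-like nuclei had 77.6 ± 45.4, near the microglia-like level. Gria4 was highest in some of the interneurons: it reached 2472 ± 337 in Sst, 2117 ± 409.9 in Pvalb and 1173 ± 204 in Lamp5 GABAergic-like nuclei. Cajal-Retzius-like (942 ± 196, n = 19), Vip (907 ± 141) and Cnr1 GABAergic-like nuclei (757 ± 210.4, n = 13) were lower, and these and the OPC-like nuclei (861 ± 155) did not differ beyond their SDs. Gria4 was at 138 ± 31.7 in CA1-like, 169 ± 20.7 in CA3-like and 117 ± 21.5 in DG granule-like nuclei. In the other glia Gria4 was lower than in OPC-like nuclei, in oligodendrocyte-like nuclei (312 ± 97.2) and, at the microglia-like level, in astrocyte-like nuclei (21.6 ± 10.5).

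Among the kainate genes, Grik1 was led by Lamp5 (1817 ± 436) and Vip GABAergic-like nuclei (1501 ± 424), whereas CA1-like (6.22 ± 5.78), CA3-like (6.39 ± 4.94) and DG granule-like nuclei (7.15 ± 7.17) had no more than microglia-like nuclei. Subicular or cortical excitatory-like nuclei had 325 ± 166, OPC-like nuclei 417 ± 53.6 and oligodendrocyte-like nuclei 146 ± 35.2, all above that level. Grik2 was highest in Vip (3041 ± 688) and Lamp5 GABAergic-like nuclei (2507 ± 447), and among principal neurons more in DG granule-like (1780.0 ± 242) and CA3-like (1612 ± 170.0) than in CA1-like nuclei (744 ± 99.1).

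Grik3 was led by subicular or cortical excitatory-like nuclei (379 ± 64.3) and Sst GABAergic-like nuclei (281 ± 40.4), which were apart from the OPC-like nuclei that followed (117 ± 28.7) by more than the larger SD. In CA1-like (1.57 ± 1.05) and CA3-like nuclei (1.12 ± 1.51) it did not exceed the microglia-like level and failed the count filter of the tests. Grik4 stood out in CA3-like nuclei, at 1116 ± 153, with every mouse between 838 and 1454. In no other class did a mouse reach that range. The next classes were OPC-like (381 ± 63.8) and DG granule-like nuclei (314 ± 74.4), while CA1-like nuclei had 83.9 ± 12.8. Grik5 was also highest in CA3-like nuclei (171 ± 39.8), ahead of DG granule-like (122 ± 19.2) and CA1-like nuclei (122 ± 22.8), and was low in oligodendrocyte-like nuclei (27.7 ± 11.4).

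**Figure D1:**
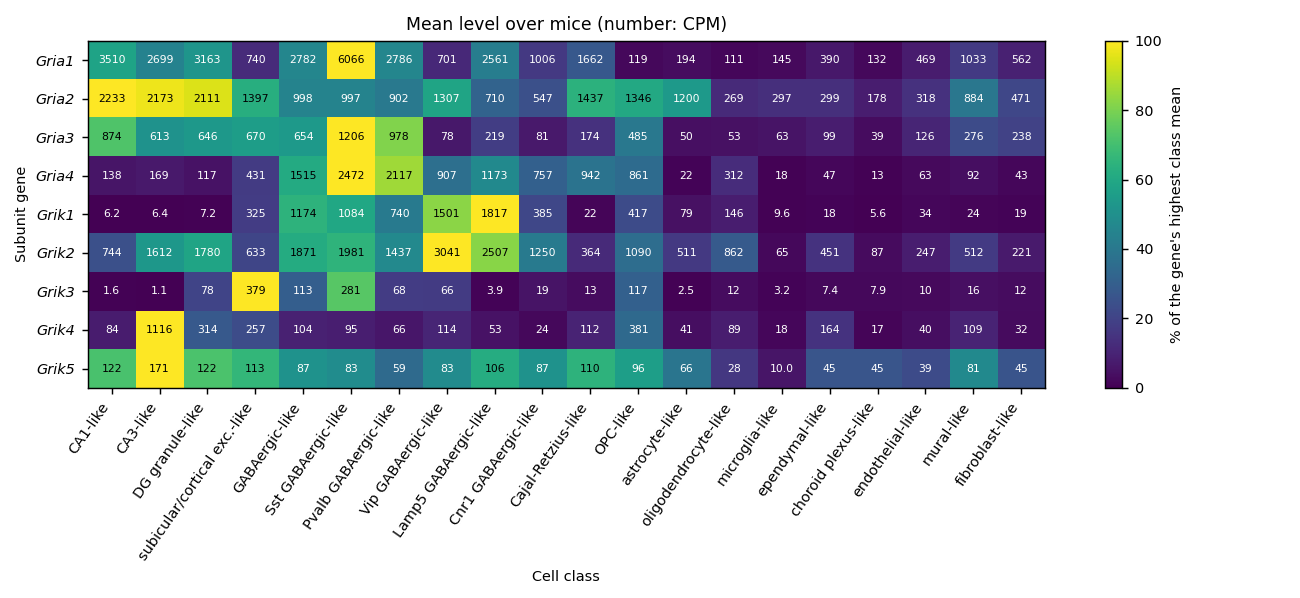
Mean level of the 9 genes (rows) in 20 named classes (columns) over mice with at least 10 nuclei of the class; the numbers are CPM, and the color is the percent of each gene's highest class mean. Grik4 peaks in CA3-like nuclei at 1116, Gria4 and Gria1 peak in Sst GABAergic-like nuclei, and Grik1 peaks in Lamp5 GABAergic-like nuclei.

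The share of each gene in its family's UMIs depends on how well each gene is counted, so a share has meaning only when 1 gene is compared between classes. Gria2 made up 81.9 ± 5.57% of AMPA subunit UMIs in astrocyte-like nuclei, 48.0 ± 6.04% in OPC-like, 38.5 ± 4.69% in CA3-like, 35.1 ± 3.45% in DG granule-like and 33.1 ± 3.08% in CA1-like nuclei. In interneurons the Gria2 share was lower, at 9.47 ± 1.88% in Sst, 13.5 ± 2.33% in Pvalb and 15.4 ± 2.76% in Lamp5 GABAergic-like nuclei, but not in Vip GABAergic-like nuclei (43.9 ± 6.99%). Gria4 took 43.1 ± 10.9% in oligodendrocyte-like nuclei and 2.06 ± 0.497% in CA1-like nuclei. Of the kainate subunit UMIs, Grik4 took 38.3 ± 4.01% in CA3-like nuclei against 8.84 ± 1.59% in CA1-like nuclei, and Grik3 took 22.4 ± 3.88% in subicular or cortical excitatory-like nuclei.

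**Figure D2:**
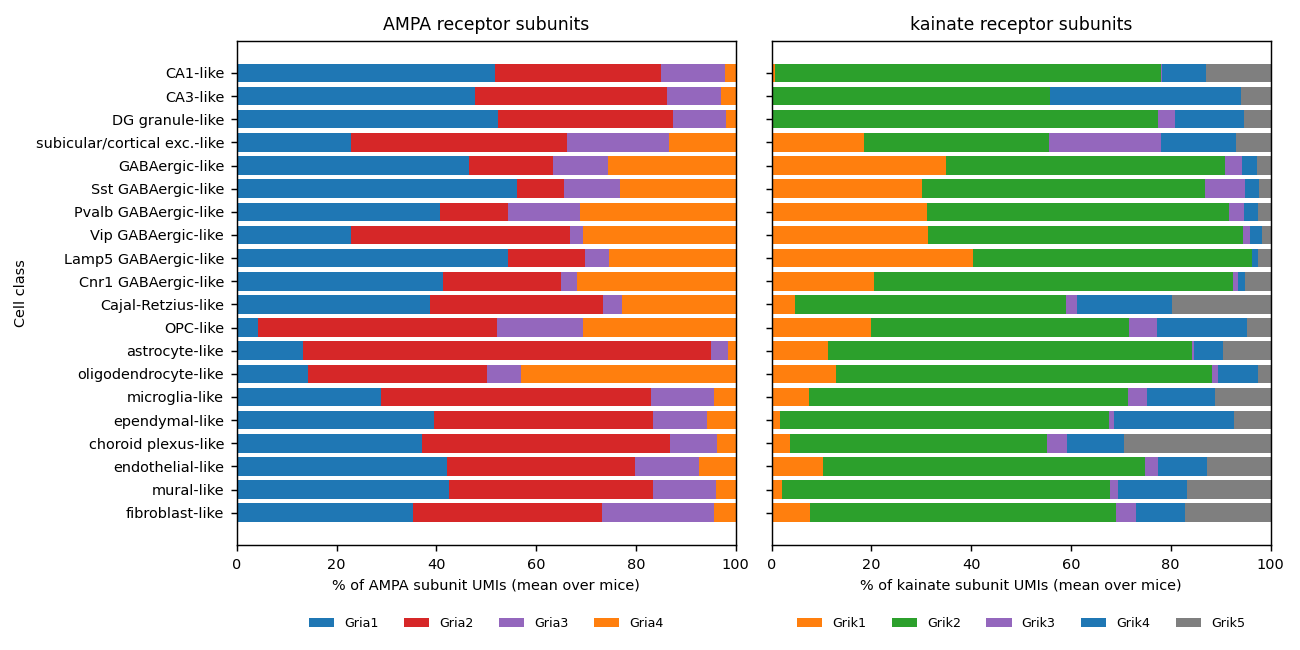
Share (percent, mean over mice) of each subunit gene in the UMIs of its family, AMPA on the left and kainate on the right, by cell class. Gria2 fills 81.9% of the astrocyte-like bar and 9.47% of the Sst GABAergic-like bar, and Grik4 fills 38.3% of the CA3-like bar.

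The genes whose class means ran most like those of a subunit gene, by Pearson's r of log2 levels over 19 classes as a description, were Epha6 (r = 0.95) and Dlgap2 (r = 0.94) for Gria1, Cacng8 (r = 0.92) and Rgs7 (r = 0.90) for Gria2 and Rbfox1 (r = 0.91) and Grm5 (r = 0.89) for Gria3. Cacng8 encodes an AMPA receptor auxiliary subunit of hippocampal neurons, and Grm5 a metabotropic glutamate receptor. For the kainate genes they were Alk (r = 0.92) and E230016M11Rik (r = 0.89) for Grik1, Ctnna2 (r = 0.89) and Cadps (r = 0.88) for Grik2, Gm47428 (r = 0.89) and Olfm3 (r = 0.80) for Grik3, Kcnmb4 (r = 0.81) and Ppp1r14c (r = 0.79) for Grik4 and Macrod2 (r = 0.93) and Itga2 (r = 0.91) for Grik5. Gria4 ran most like the unnamed transcripts 4931428F04Rik (r = 0.94) and 8030451O07Rik (r = 0.92). The classes share libraries, so these values carry no test.

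In CA1-like nuclei Gria1 ranged from 3023 to 4497 (median 3557) CPM in the 9 awake mice, from 2571 to 3839 (median 3503) in the 7 isoflurane mice and was 4128 and 3892 in the WT mice and 3271 and 3731 in the mice labelled APP/PS1 under ketamine. Gria2 ranged from 1722 to 2724 (median 2035) awake and from 2092 to 2513 (median 2327) under isoflurane, and was 2234 and 2357 in the WT mice and 2377 and 2319 in the mice labelled APP/PS1 under ketamine. The groups overlapped for both genes. Grik2 ranged from 585 to 983 (median 737) awake and from 603 to 812 (median 692) under isoflurane, and was 854 and 783 in the WT mice and 807 and 862 in the mice labelled APP/PS1 under ketamine. Grik4 ranged from 65.3 to 104 (median 90.1) awake and from 72.5 to 106 (median 75.7) under isoflurane, and was 70.7 and 105 in the WT mice and 74.6 and 72.4 in the mice labelled APP/PS1 under ketamine. By edgeR's quasi-likelihood test none of the 4 genes was called in CA1-like nuclei in any comparison, and their adjusted p against awake were 0.563, 0.822, 0.485 and 0.317 for isoflurane and 0.497, 0.325, 0.383 and 0.791 for ketamine.

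Under isoflurane, 3 of the 69 tests of a subunit gene in a class passed (edgeR, Benjamini-Hochberg adjusted p under 0.05 over all genes of the class): Gria3 fell in subicular or cortical excitatory-like nuclei, Gria4 fell and Grik3 rose in oligodendrocyte-like nuclei. Over all genes of the 8 classes, 4.2% of tests passed, so the share among the subunit genes was near the background. An unadjusted edgeR p under 0.05 was found in 16 of the 69 tests (23.2%), against 16.6% over all genes. Without mouse 18 there was 1 call, without mouse 11 there were 6, and with the run of mouse numbers as a term 5. The share over all genes in such altered fits is not given here or below. By class the background of the unaltered fit was 5.59% in CA1-like, 2.15% in CA3-like, 2.65% in DG granule-like, 5.17% in subicular or cortical excitatory-like, 2.67% in GABAergic-like, 0.742% in OPC-like, 7.62% in astrocyte-like and 6.05% in oligodendrocyte-like nuclei. Differences are log2 differences ± SE, averaged over the genotypes as labelled. The median difference was -0.13 over the 69 tests and 0.01 over all genes. Gria4 and Grik5 were below 0 in 8 of 8 classes, from -0.55 to -0.14 and from -0.46 to -0.08, although the classes come from the same mice and only Gria4 in oligodendrocyte-like nuclei passed. How many of all genes kept 1 sign over the classes was not counted.

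Gria3 in subicular or cortical excitatory-like nuclei ranged from 599.7 to 919 (median 678) CPM awake and from 368 to 653 (median 513) under isoflurane, and 6 of the 7 isoflurane mice were below all awake mice. The log2 difference was -0.66 ± 0.14 (adjusted p = 0.00803), and it was -0.83 in the WT mice and -0.49 in those labelled APP/PS1. It was called without any 1 of the 20 mice (adjusted p at most 0.0373). Within the 4 runs of mouse numbers that held both states (1 to 4, 10 to 13, 14 to 17 and 18 to 20), the log2 ratio of the means was -0.21, -0.32, -0.80 and -0.42. The run of 10 to 13 held 1 isoflurane mouse and that of 18 to 20 held 1 awake mouse. When nuclei were assigned alone by their own marker UMIs, the difference was -0.31 and was not called (adjusted p = 0.168). Of the nuclei so assigned to this class, 47.4% lay in the clusters of the class. The part of this choice of nuclei in the result was not tested.

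Gria4 in oligodendrocyte-like nuclei ranged from 247 to 581 (median 393) CPM awake and from 209 to 312 (median 248) under isoflurane, and the groups overlapped. The log2 difference was -0.55 ± 0.16 (adjusted p = 0.0459). The call was lost without any 1 of 17 of the mice (adjusted p up to 0.127), and in the run of mice 18 to 20 the log2 ratio was 0.08. Grik3 in the same nuclei was a gene of few counts, with 0 to 17 UMIs per awake mouse and 6 to 32 per isoflurane mouse, and it ranged from 0 to 16.3 (median 6.15) CPM awake and from 8.58 to 29.0 (median 25.1) under isoflurane. Its log2 difference was 1.55 ± 0.40 (adjusted p = 0.0225). With doublets kept it was 0.00310 (adjusted p = 0.997), and without mouse 10 or mouse 18 the adjusted p rose to at most 0.0954. Keeping doublets also returned clusters with over 40% of them to the class that their markers scored highest. Oligodendrocyte-like nuclei thereby gained clusters of 1433, 1374, 769 and 344 nuclei, with 57.3, 52.5, 80.6 and 48.5% scored doublets. Their second classes by markers were CA1-like, DG granule-like, astrocyte-like and microglia-like. The part of these clusters in the value with doublets kept was not tested. Leaving out 1 mouse gave differences of Grik3 from 1.26 (without mouse 18) to 2.31 (without mouse 2). Beside these values, the summed level of the 8 CA1 markers in oligodendrocyte-like nuclei was 119 to 231 awake and 72.1 to 187 under isoflurane, that of the 9 GABAergic markers 1473 to 2193 and 1482 to 2732, and that of the 8 oligodendrocyte markers 16290.4 to 21005 and 12943 to 19233, with no list having a marker at 0 in all mice. Their part in the results was not tested.

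Grik5 in CA3-like nuclei had the smallest adjusted p of the tests that were not called (0.0548). It ranged from 156 to 269 (median 179) CPM awake and from 118 to 173 (median 140.5) under isoflurane, with a log2 difference of -0.46 ± 0.12. It was called in 3 of the 20 fits without 1 mouse (adjusted p from 0.0269 to 0.175), in DESeq2 (adjusted p = 0.0258) and with the run as a term (adjusted p = 0.0246). Within the 4 runs of mouse numbers the log2 ratio was -0.62, -0.22, -0.39 and -0.28.

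**Figure D3:**
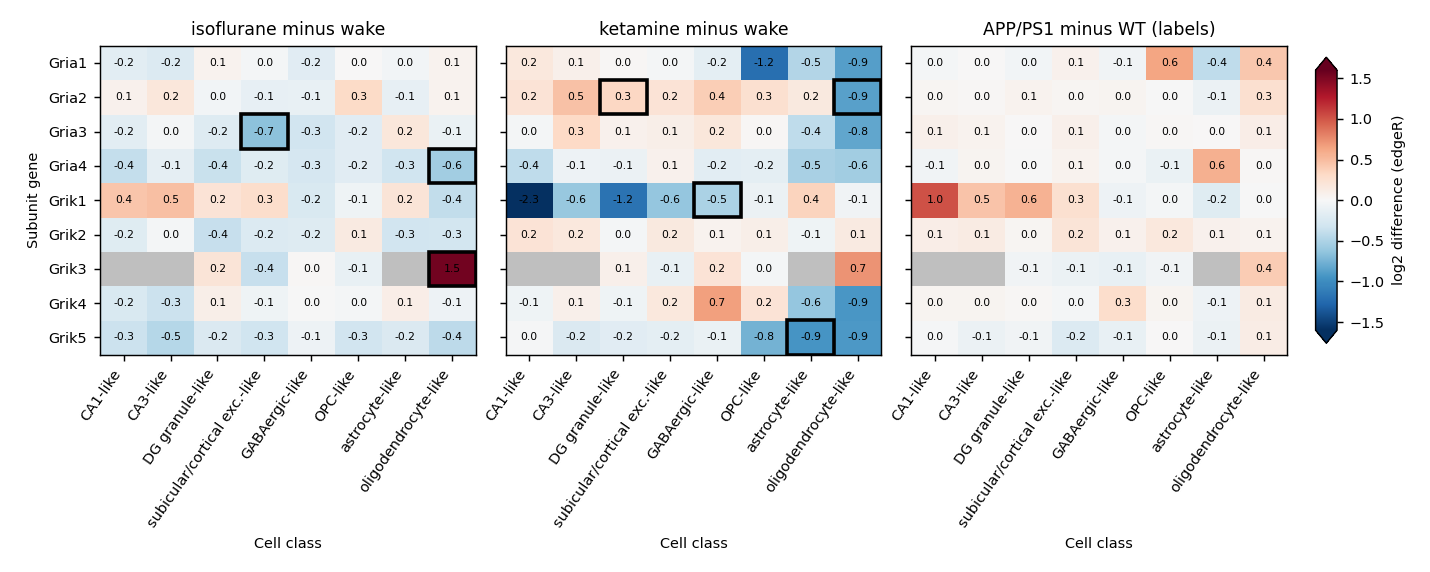
Log2 differences (edgeR) of the 9 genes (rows) in the 8 tested classes (columns) for isoflurane minus awake, ketamine minus awake and labelled APP/PS1 minus WT; black frames mark adjusted p under 0.05 and gray cells genes that failed the count filter. Of 69 cells in each panel, 3 are framed for isoflurane, 4 for ketamine and 0 for genotype.

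Under ketamine with xylazine, 4 of the 69 tests passed against the same 9 awake mice: Grik1 fell in GABAergic-like nuclei, Grik5 fell in astrocyte-like nuclei, Gria2 fell in oligodendrocyte-like nuclei and Gria2 rose in DG granule-like nuclei. Over all genes 6.45% of tests passed, 9.57% in CA1-like, 3.47% in CA3-like, 12.6% in DG granule-like, 4.25% in subicular or cortical excitatory-like, 4.26% in GABAergic-like, 0.605% in OPC-like, 8.16% in astrocyte-like and 3.44% in oligodendrocyte-like nuclei. The 4 ketamine mice share their run of numbers (25 to 29) with 1 awake mouse, mouse 29, so state and run can hardly be told apart, and with the run as a term 0 of the 69 tests passed. Without mouse 25 there was 1 call, and without mouse 29 there were 8. The median difference was -0.04 over the 69 tests and -0.04 over all genes. An unadjusted edgeR p under 0.05 was found in 17 of the 69 tests (24.6%), against 24.2% over all genes.

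Grik1 in GABAergic-like nuclei ranged from 1173 to 1641 (median 1273) CPM awake and was 931 and 969 in the WT mice and 787 and 828.96 in the mice labelled APP/PS1 under ketamine. The groups did not overlap. The log2 difference was -0.51 ± 0.12 (adjusted p = 0.0209), -0.47 in the WT mice and -0.55 in those labelled APP/PS1, and it was -0.47 with the run as a term (adjusted p = 0.755). Without mouse 25, 26, 27 or 28 the adjusted p was above 0.05 (up to 0.109), and awake mouse 29 had 1233.

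The subclasses of interneuron were also set side by side. Lamp5 GABAergic-like nuclei were 14.3 to 22.0% of GABAergic-like nuclei awake and 11.5 to 16.0% under ketamine. Within them Grik1 ranged from 1647 to 2606 (median 2246) awake and from 908 to 1869.7 (median 1344) under ketamine, in Sst GABAergic-like nuclei from 938 to 1849 (median 1201) and from 713 to 849 (median 756), in Pvalb GABAergic-like nuclei from 611 to 1239.6 (median 772) and from 576 to 954 (median 673), and in Vip GABAergic-like nuclei from 1088 to 2239 (median 1560.2) and from 791 to 1192 (median 1124). The ketamine and awake ranges were apart in Sst GABAergic-like nuclei and overlapped in Lamp5, Pvalb and Vip GABAergic-like nuclei. The summed level of the 8 subicular or cortical markers in GABAergic-like nuclei was 121 to 403 awake and 359 to 482 under ketamine, and that of the 9 GABAergic markers 6923 to 8770.4 and 5521 to 6732. The subicular or cortical list includes Fn1, also a top 10 gene of a fibroblast-like cluster, and the sum was not split by gene. Fibroblast-like nuclei numbered 11 to 549 per awake mouse and 295 to 886 per ketamine mouse. The part of these markers in the result was not tested.

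Grik5 in astrocyte-like nuclei ranged from 54.1 to 109 (median 73.6) CPM awake and was 45.3 and 43.8 in the WT mice and 31.0 and 34.8 in the mice labelled APP/PS1 under ketamine, with 23 to 38 UMIs per ketamine mouse. The groups did not overlap. The log2 difference was -0.94 ± 0.19 (adjusted p = 0.00457), and it was called without any 1 of the 20 mice (adjusted p at most 0.0308). With the run as a term it was -0.51 (adjusted p = 0.763), and with doublets kept -0.63 (adjusted p = 0.0551). The summed level of the 8 CA3 markers in astrocyte-like nuclei was 114 to 182 awake and 107 to 120.1 under ketamine, and that of the 8 CA1 markers 88.7 to 162 and 79.9 to 102.

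Gria2 in DG granule-like nuclei ranged from 1836 to 2403 (median 1884) CPM awake and was 2412 and 2294 in the WT mice and 2587 and 2560.1 in the mice labelled APP/PS1 under ketamine. Awake mouse 29, of the same run, had 2403 and lay within the ketamine range. The log2 difference was 0.33 ± 0.11 (adjusted p = 0.0488), it was lost without any 1 of 14 of the mice (adjusted p up to 0.208), and with the run as a term it was -0.04. The difference of Gria2 was above 0 in 7 of 8 classes, among them CA3-like (0.47 ± 0.14, adjusted p = 0.0676) and GABAergic-like nuclei (0.39 ± 0.16, adjusted p = 0.152), which did not pass. The classes come from the same mice, and how many of all genes ran alike over them was not counted.

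Gria2 in oligodendrocyte-like nuclei was no higher than in microglia-like nuclei. It ranged from 176 to 489 (median 282) CPM awake and was 162 and 104 in the WT mice and 185 and 164 in the mice labelled APP/PS1 under ketamine. The log2 difference was -0.87 ± 0.23 (adjusted p = 0.0443), and it was -0.02 with doublets kept (adjusted p = 0.981). The call was lost without any 1 of 13 of the mice (adjusted p up to 0.184). Beside these values, the summed level of the 8 subicular or cortical markers in oligodendrocyte-like nuclei was 144 to 624.6 awake and 449.8 to 831 under ketamine, and that of the 7 fibroblast markers 4.34 to 354 and 249.6 to 1079. Fn1, in the subicular or cortical list, was also a top 10 gene of a fibroblast-like cluster. The part of these markers in the result was not tested. Gria1 in OPC-like nuclei, also at the microglia-like level, had the smallest adjusted p of the tests not called (0.0524), ranging from 73.5 to 277 (median 121) awake against 46.1 and 50.5 in the WT mice and 56.6 and 67.4 in the mice labelled APP/PS1 under ketamine. It was called in 6 of the 20 fits without 1 mouse (adjusted p from 0.0341 to 0.227, log2 difference from -1.01 to -1.33). It was also called in DESeq2, with library sizes without TMM, without a gene filter and with only the states compared (adjusted p = 0.0265, 0.0408, 0.0467 and 0.0438), whereas the adjusted p was 0.881 with the run as a term and 0.872 with doublets kept.

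**Figure D4:**
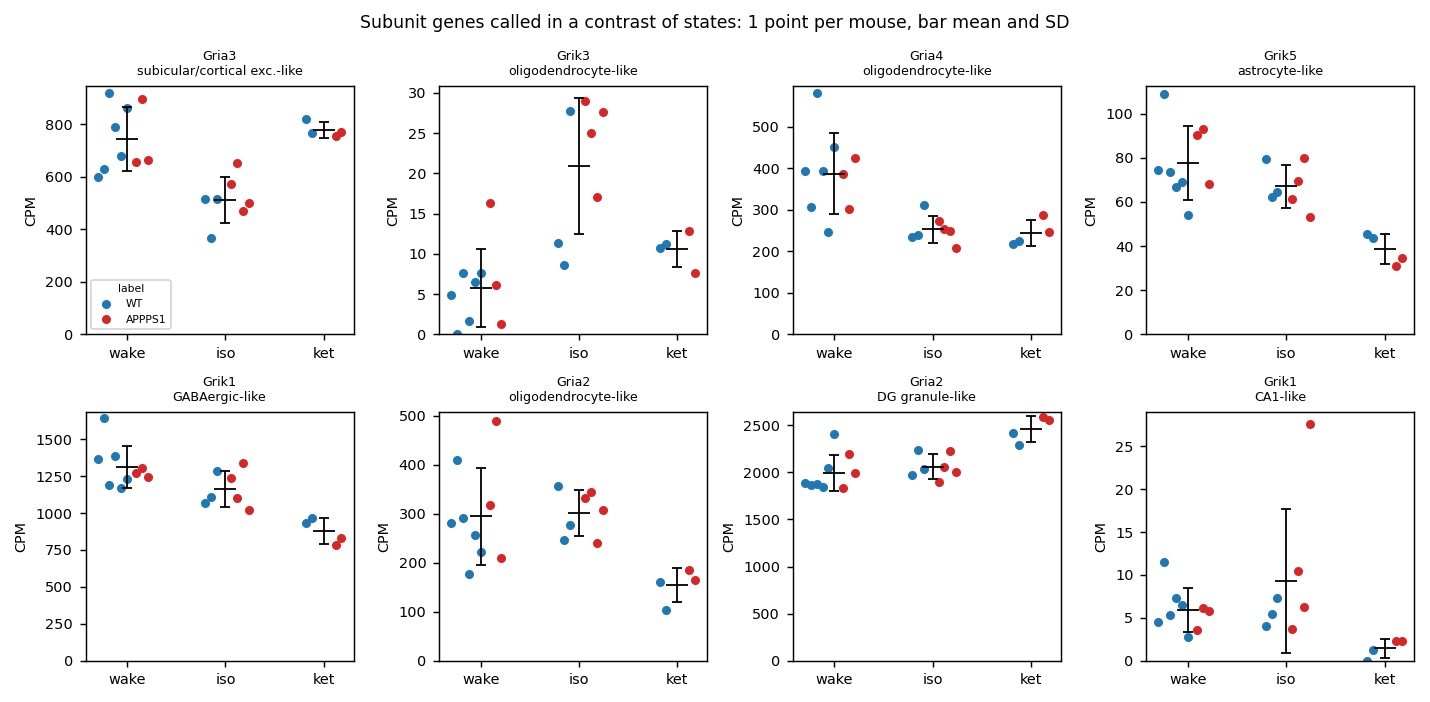
Level (CPM) of each gene and class called in a comparison of states, by mouse, in awake, isoflurane (iso) and ketamine (ket) mice; points are mice, blue for WT and red for mice labelled APP/PS1, and bars are mean and SD. Grik1 in GABAergic-like and Grik5 in astrocyte-like nuclei are lower in the 4 ketamine mice than in every awake mouse.

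Between the anesthetics, 4 of the 69 tests passed, and 4.33% of tests over all genes, 6.93% in CA1-like, 1.57% in CA3-like, 4.79% in DG granule-like, 1.7% in subicular or cortical excitatory-like, 1.47% in GABAergic-like, 0.715% in OPC-like, 9.82% in astrocyte-like and 5.16% in oligodendrocyte-like nuclei. An unadjusted edgeR p under 0.05 was found in 24 of the 69 tests (34.8%), against 22.9% over all genes. These tests used the same isoflurane and ketamine mice as the comparisons with awake mice, so they are no separate evidence. Gria3 in subicular or cortical excitatory-like nuclei was, in CPM under ketamine, 821 and 765 in the WT mice and 754 and 771 in the mice labelled APP/PS1, above every isoflurane mouse, with a log2 difference of 0.75 ± 0.17 (adjusted p = 0.0305). Grik5 in astrocyte-like nuclei ranged from 53.2 to 79.8 (median 64.3) under isoflurane, above every ketamine mouse (-0.70 ± 0.19, adjusted p = 0.0260). Gria2 in oligodendrocyte-like nuclei ranged from 241 to 357 (median 308) under isoflurane (-0.94 ± 0.24, adjusted p = 0.0334), and the difference changed sign with doublets kept (0.11). Grik1 in CA1-like nuclei had 0 to 5 UMIs per ketamine mouse and 9 to 97 per isoflurane mouse, at levels within the range of microglia-like nuclei (0 to 53.6 CPM; -2.73 ± 0.77, adjusted p = 0.0392). That difference ran from -2.17 to -4.47, the latter without mouse 28, when 1 mouse was left out. With the run as a term none of these 4 was called, and each of the 4 calls was lost when mouse 25, 26, 27 or 28 was left out in turn. The count of calls over the 69 tests was 0 without mouse 25 and 6 without mouse 11. Gria1 in OPC-like nuclei had the smallest adjusted p of the tests not called (0.0549), and it was called in 3 of the 20 fits without 1 mouse, in DESeq2, with library sizes without TMM and without a gene filter.

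The share of Gria2 in AMPA subunit UMIs does not depend on the scaling between mice. In CA1-like nuclei it was 35.4 ± 2.37% in the 7 isoflurane mice and 31.4 ± 2.87% in the 9 awake mice, 4.03 percentage points higher (two-sided exact permutation test, p = 0.00804, adjusted p = 0.0336 over 6 tests). The ranges, 32.6 to 40.0% and 26.2 to 35.3%, overlapped. Within the 4 runs of mouse numbers isoflurane exceeded awake by 7.07, 3.08, 5.26 and 1.16 percentage points. The second of these rested on 1 isoflurane mouse and the fourth on 1 awake mouse. Without mice 1 to 4 the difference was 2.88 and was not called (exact permutation, adjusted p = 0.277), nor was it without mouse 3 (difference 3.25, adjusted p = 0.0629).

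In DG granule-like nuclei the Gria2 share was 39.2 ± 3.31% in the 4 ketamine mice and 34.2 ± 2.80% in the awake mice, 5.02 percentage points higher (exact permutation test, p = 0.0112, adjusted p = 0.0336). It was 43.6% in mouse 25, and without that mouse the difference was 3.55 and was not called, nor was it without mouse 2 or mouse 26 (adjusted p up to 0.218). Awake mouse 29, of the same run, had 35.9%. The other 4 tests did not pass: ketamine in CA1-like nuclei differed from awake by 1.74 (exact permutation, adjusted p = 0.632), isoflurane in DG granule-like nuclei by -0.358 (0.801), and mice labelled APP/PS1 from WT mice by 0.818 in CA1-like (0.687) and 0.964 in DG granule-like nuclei (0.687).

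**Figure D5:**
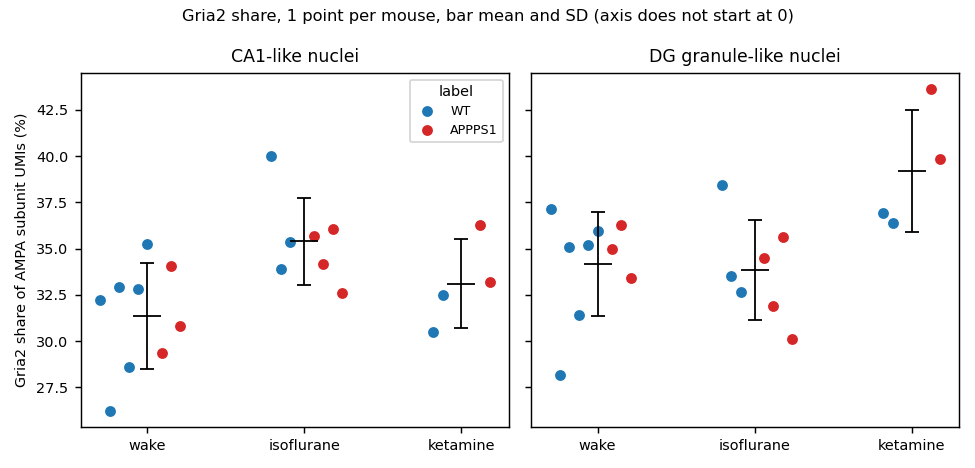
Gria2 share (percent) of the UMIs of the 4 AMPA subunit genes in CA1-like (left) and DG granule-like nuclei (right) by state; points are mice, blue for WT and red for mice labelled APP/PS1, bars are mean and SD, and the axis does not start at 0. Isoflurane mice average 35.4% against 31.4% awake on the left, and ketamine mice 39.2% against 34.2% on the right.

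Between mice labelled APP/PS1 and WT mice, 0 of the 69 tests passed in edgeR, as 0% of tests over all genes did, and 1 of the 69 had an unadjusted p under 0.05 (2.54% over all genes). That test was Gria1 in OPC-like nuclei, with a log2 difference of 0.63 ± 0.22 (edgeR adjusted p = 0.9998) at the microglia-like level. DESeq2 called 0. In CA1-like nuclei the differences of labelled APP/PS1 minus WT were -0.03 ± 0.12 for Gria1, 0.04 ± 0.11 for Gria2, 0.08 ± 0.11 for Gria3 and 0.11 ± 0.12 for Grik2. The labels at odds with Prnp bear on this comparison and their part was not tested.

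The difference of the isoflurane response between the genotypes as labelled, tested as an interaction, also had 0 of 69 calls in edgeR and 0 in DESeq2, with 4 at an unadjusted p under 0.05 against 3.40% of tests over all genes. These were Grik3 and Grik4 in subicular or cortical excitatory-like nuclei, Grik3 in OPC-like and Grik4 in DG granule-like nuclei, with log2 interaction terms from 0.66 ± 0.24 (Grik3 in subicular or cortical excitatory-like nuclei) to 0.97 ± 0.38 (Grik3 in OPC-like nuclei). Grik1 in CA1-like nuclei, no higher than in microglia-like nuclei, had the smallest adjusted p (0.878).

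Most genes that act on these receptors are not subunits, and 35 of them were described from a list of auxiliary, trafficking, anchoring, RNA editing and related genes, in 242 tests over the 8 classes. Under isoflurane 2 tests passed upward and 12 downward, 23 in all with the run as a term and 7 without mice 1 to 4. The tests called were 5.79% of the list (0.826% higher and 4.96% lower) against 4.2% over all genes (2.42% higher and 1.77% lower), so the count in all was near the background. Of the AMPA auxiliary subunits, 6 of 77 tests passed downward (Cacng2, Cacng3, Cacng8 and Cnih3, which slow or traffic the channel) and 1 upward (Gsg1l in GABAergic-like nuclei), and of the kainate auxiliary subunits Neto1 and Neto2 4 of 16 passed, all downward. The median log2 difference was -0.12 over the AMPA auxiliary and -0.45 over the kainate auxiliary tests. It was nearer 0 over the anchoring (-0.04, 2 of 77 tests passed, downward, in Dlg1 and Dlg2), assembly and trafficking (-0.02, 0 of 40) and RNA editing tests (0.01, 1 of 16, upward). Cacng3 in subicular or cortical excitatory-like nuclei ranged from 39.3 to 126 (median 92.05) CPM awake and from 22.9 to 44.5 (median 30.6) under isoflurane (-1.64 ± 0.24, adjusted p = 0.000393), and Neto1 in these nuclei from 91.6 to 244 (median 172) and from 55.4 to 139 (median 85.1) (-1.15 ± 0.21, adjusted p = 0.00222). Neto2 in CA3-like nuclei ranged from 76.6 to 119.7 (median 102) awake and from 25.8 to 71.3 (median 51.4) under isoflurane, with no overlap (-1.02 ± 0.16, adjusted p = 0.00299). Adarb1, which encodes the enzyme that edits the Q/R site of Gria2 RNA, rose in astrocyte-like nuclei from 15.4 ± 3.45 to 34.1 ± 10.2 CPM (1.03 ± 0.21, adjusted p = 0.00397).

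Under ketamine 18 of the 242 tests passed, all downward, 9 of them among the AMPA auxiliary subunits and 3 in Neto2, with medians of -0.52 over the AMPA auxiliary and -0.73 over the kainate auxiliary tests. The other 6 were 5 of the 77 anchoring tests (Dlg4, Nsf and Pick1; median -0.23) and 1 of the 40 assembly and trafficking tests (Cpt1c; median -0.36), whereas 0 of the 16 RNA editing tests passed (median 0.05). Of the delta receptor tests 0 of 16 passed (median 0.13). The tests called were 7.44% of the list (0% higher and 7.44% lower) against 6.45% over all genes (3.37% higher and 3.07% lower), so the count in all was near the background here too. In CA1-like nuclei, Cacng3 ranged from 89.5 to 181 (median 112) CPM awake and from 29.9 to 54.1 (median 42.4) under ketamine (-1.41 ± 0.27, adjusted p = 0.00332), Cacng8 from 179 to 223 (median 199.8) and from 101 to 157 (median 123) (-0.60 ± 0.12, adjusted p = 0.00590), and Neto2 from 37.5 to 75.5 (median 70.2) and from 25.3 to 38.3 (median 29.8) (-1.01 ± 0.22, adjusted p = 0.00767). Cacng3 also fell in subicular or cortical excitatory-like nuclei (-1.41 ± 0.28, adjusted p = 0.00631). Cacng3 and Cacng8 in CA1-like nuclei were lower in each ketamine mouse than in each awake mouse. The summed level of the 8 CA1 markers in these nuclei was 1055 to 1367 awake, 899 to 1217 under isoflurane and 706 to 889 under ketamine, and their part was not tested. With the run of mouse numbers as a term 1 of 242 tests passed, and without mouse 25 4 of 248 did, all downward.

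Between ketamine and isoflurane 9 of the 242 tests passed, 8 of them lower under ketamine, led by Adar (-0.69 ± 0.18, adjusted p = 0.0196) and Cpt1c (-1.07 ± 0.27, adjusted p = 0.0200) in astrocyte-like nuclei and by the scaffold genes Dlg4 (-0.42 ± 0.11, adjusted p = 0.0346) and Pick1 (-0.67 ± 0.17, adjusted p = 0.0358) in DG granule-like nuclei. The tests called were 3.72% of the list (0.413% higher and 3.31% lower) against 4.33% over all genes (2.09% higher and 2.23% lower), so the count in all was no more than the background. With the run as a term 0 passed, and without mouse 25 1 passed. No test of the list passed between genotypes or in the interaction, in which edgeR called 0 genes of all those tested.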

How the data were processed

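The authors deposited raw UMI counts per gene and nucleus, 1 library per mouse, from hippocampal nuclei (10x Genomics). Per the file headers and the submitters' processing notes these came from Cell Ranger 5.0.0 on mm10; the methods add counting of introns and correction of ambient RNA with CellBender, which the headers do not name. Groups were taken from the labels, whose group sizes differ from those in the series' design text, and the mouse numbers only name the mice. The labels say that tissue was taken after perfusion, the methods after decapitation. The methods describe batches of 4 mice drawn from the groups, but no label says which mice formed one; runs of consecutive numbers stood in for it.

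No nucleus had under 200 genes. Scored doublets (0.8% per 1000 nuclei in each mouse, by simulated doublets) and clusters with over 40% of them were removed. Nuclei were clustered without the 9 genes (2000 variable genes scaled within each mouse, 30 principal components, 20 neighbours, Leiden resolution 1, leidenalg 0.10.2), and clusters were named from marker lists. Clusters were left unnamed with fewer than 3 detected markers, with at least 1 marker of another class and as many of it as of their own in the top 10 genes, with a score far under that of the class's best cluster, with close scores for 2 classes, or with few UMIs and no marker of their own there, limits that were not fixed beforehand. The clusters named CA1-like had no marker of any class in their top 10 genes. Counts were summed per mouse and class (at least 50 nuclei for tests, 10 for levels) and tested with edgeR 4.0.16 (R 4.3.3; TMM, filterByExpr, 6 group means, quasi-likelihood test, Benjamini-Hochberg over all genes of a class), with the threshold 0.05. Of 72 pairs of gene and class, 69 passed the filter. Total counts per mouse were 9243992 to 25394891 UMIs, so genes of few UMIs per class were the least precise. The test was tried on simulated counts. Gria2 shares were compared by two-sided exact permutation tests. Alternatives were DESeq2 1.42.0, no TMM, no filter, other nuclei and clusters, a term for the run of mouse numbers, only the states compared, and left-out mice. With doublets kept, the clusters with over 40% of them also went to the class that their markers scored highest.

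The genes, lists and tests were chosen with earlier results of these data known. Named differences are all called pairs and, per comparison, the uncalled pair with the smallest adjusted p, and from the pathway list the 4 called tests with the smallest adjusted p. Some entries of that list are not reported here by name.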

Additional observations from a re-analysis of the deposited data

Results flagged for a closer look

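Of 28 groups of 4 to 6 mice examined for the named genes and classes, 2 held a mouse far from the others, where chance alone gives about 1 in 20. Gria2 in DG granule-like nuclei was 2403 CPM in awake WT mouse 29, against 1844 to 2048 in the other awake WT mice. This mouse shares its run of numbers with the ketamine mice, which had 2412 and 2294 in the WT mice and 2587 and 2560.1 in the mice labelled APP/PS1. Grik5 in astrocyte-like nuclei was 109 CPM in awake WT mouse 12, against 54.1 to 74.4 in the other awake WT mice.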

How the results depend on the processing

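No paired analysis was possible because no mouse number is shared between groups, so mice could not be matched one to one; the fit with the run of mouse numbers as a term served as the blocked comparison. The count of calls among the 69 tests was 3 for isoflurane against awake, 4 for ketamine against awake and 4 between the anesthetics. For isoflurane it was 1 with at least 500 genes per nucleus and 5 with the run of mouse numbers as a term. For ketamine it was 7 with DESeq2, 7 without TMM, 1 with doublets kept, 1 with nuclei assigned alone and 0 with the run as a term. Between the anesthetics these were 8 (DESeq2), 1 (doublets kept), 0 (nuclei assigned alone) and 0 (run). Leaving out 1 mouse gave 1 to 6, 1 to 8 and 0 to 6 calls, with the fewest without mouse 18, mouse 25 and mouse 25. Genotype and interaction had 0 calls under each alternative. For the pathway list, isoflurane had 14 calls, 23 with the run and 7 without mice 1 to 4; ketamine 18, 1 with the run and 4 without mouse 25; and ketamine against isoflurane 9, 0 and 1. These alternatives for the list were chosen after seeing the data. The share over all genes called under each alternative is not given here, so the counts show nothing particular to the genes counted.

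The sign turned for Gria2 in DG granule-like nuclei under ketamine with the run as a term (log2 difference -0.0435) and for Gria2 in oligodendrocyte-like nuclei between the anesthetics with doublets kept (0.11) or nuclei assigned alone (0.0188). The Gria2 share in CA1-like nuclei under isoflurane was 3.90 percentage points higher with nuclei assigned alone and 2.88 without mice 1 to 4, and in DG granule-like nuclei under ketamine 4.21 and 5.56, none of them called. Leaving out 1 mouse moved the difference over 3.25 to 4.51 (CA1-like, isoflurane), 0.681 to 2.62 (CA1-like, ketamine), 0.167 to 1.55 (CA1-like, genotype), -1.12 to 0.260 (DG granule-like, isoflurane), 3.55 to 5.95 (DG granule-like, ketamine) and -0.0388 to 1.65 (DG granule-like, genotype). The cause of these changes was not tested.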
